A study of Mus musculus with 26 samples.

Results

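The 10 genes described here encode CTCF, cohesin and the factors that put cohesin on DNA, take it off or tune it: Ctcf, Rad21, Smc1a, Smc3, Stag1, Stag2, Nipbl, Wapl, Pds5a and Pds5b. They were chosen by symbol, and all 10 were found among the 55487 genes of the count tables and among the 18050 genes with enough counts to be tested. The series examined mouse frontal cortex from adolescent littermates that were heterozygous for an Adnp frameshift (HET, labelled as mutant) or wild type (WT). RNA was sequenced from 7 HET and 7 WT mice, 1 library each, and open chromatin (ATAC-seq, which marks DNA that a transposase can enter) was given as 1 merged peak list for HET and 1 for WT. The labels give neither strain nor sex nor an exact age, and they name no batch. The tissue was not sorted, so in these bulk samples fewer cells of a type and less RNA per cell cannot be told apart.

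Cohesin is a ring built from SMC1A, SMC3 and RAD21, to which a STAG subunit, either STAG1 or STAG2, is added. NIPBL, which works with MAU2, loads the ring and drives it to extrude loops of DNA. The DNA-binding protein CTCF halts the ring at its motif, WAPL with a PDS5 protein releases it, and the PDS5 proteins also regulate its residence. Human mutations in several of these genes cause neurodevelopmental syndromes, among them Cornelia de Lange syndrome (NIPBL, SMC1A, SMC3, RAD21), and ADNP, the protein affected in HET mice, has been reported in mouse stem cells to compete with CTCF for sites in repeats.

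The HET libraries held 33280785 to 47079906 counts and the WT libraries 32814841 to 48291175, and each of the 10 genes had between 1041 and 6832 counts in every library. The mutated gene itself stood at 5.34 to 8.68 CPM (the count of a gene relative to the TMM-scaled total of its library) in HET and 5.67 to 7.84 CPM in WT, a level that does not check the labels, since an mRNA with a frameshift can persist. The libraries differed in their neuronal makeup. The 8 excitatory neuron markers summed to between 974 and 6491 CPM in HET and between 2835 and 8506 CPM in WT, and the 5 thalamic markers to between 137 and 1084 CPM in HET and between 111 and 343 CPM in WT, with no defining marker of either list at 0 in any library. HET 4, HET 1 and WT 4 had the lowest means of the excitatory markers. No marker of these 2 lists passed the test between genotypes (edgeR, adjusted p under 0.05), and 6 of 8 and 3 of 5 had an unadjusted p under 0.05. The 5 striatal markers summed to 62.4 to 1138 CPM in HET and 84.7 to 794 CPM in WT. The 4 choroid plexus markers summed to 12.35 to 730 CPM in HET and 8.435 to 424 CPM in WT. Of the striatal and choroid plexus markers, 0 were called and 0 had an unadjusted p under 0.05.

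The comparison asked which of the 10 genes differed in mRNA level between HET and WT cortex. Stag1 rose by 20.5% in HET and was the single gene of the 10 to pass the test. The other 9 genes did not pass, and their estimated differences lay between -3.97% (Ctcf) and 9.57% (Nipbl). In edgeR's quasi-likelihood test with Benjamini-Hochberg adjustment over the whole table, 1 of 10 rose and 0 fell, against 0.97% of all 18050 genes called, 0.587% higher and 0.382% lower. At an unadjusted p under 0.05, 3 of the 10 were higher (Stag1, Stag2 and Wapl) and 0 lower, where 22.2% of all genes had such a p and 11.8% were higher. DESeq2 and limma-voom also called 1 higher, Stag1, and 0 lower, and they called 4.25% and 5.16% of all genes higher. The median log2 fold change of the 10 genes was 0.08, with 8 above 0. That of all genes tested was 0.02, with 9619 of 18050 above 0.

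**Figure D1:**
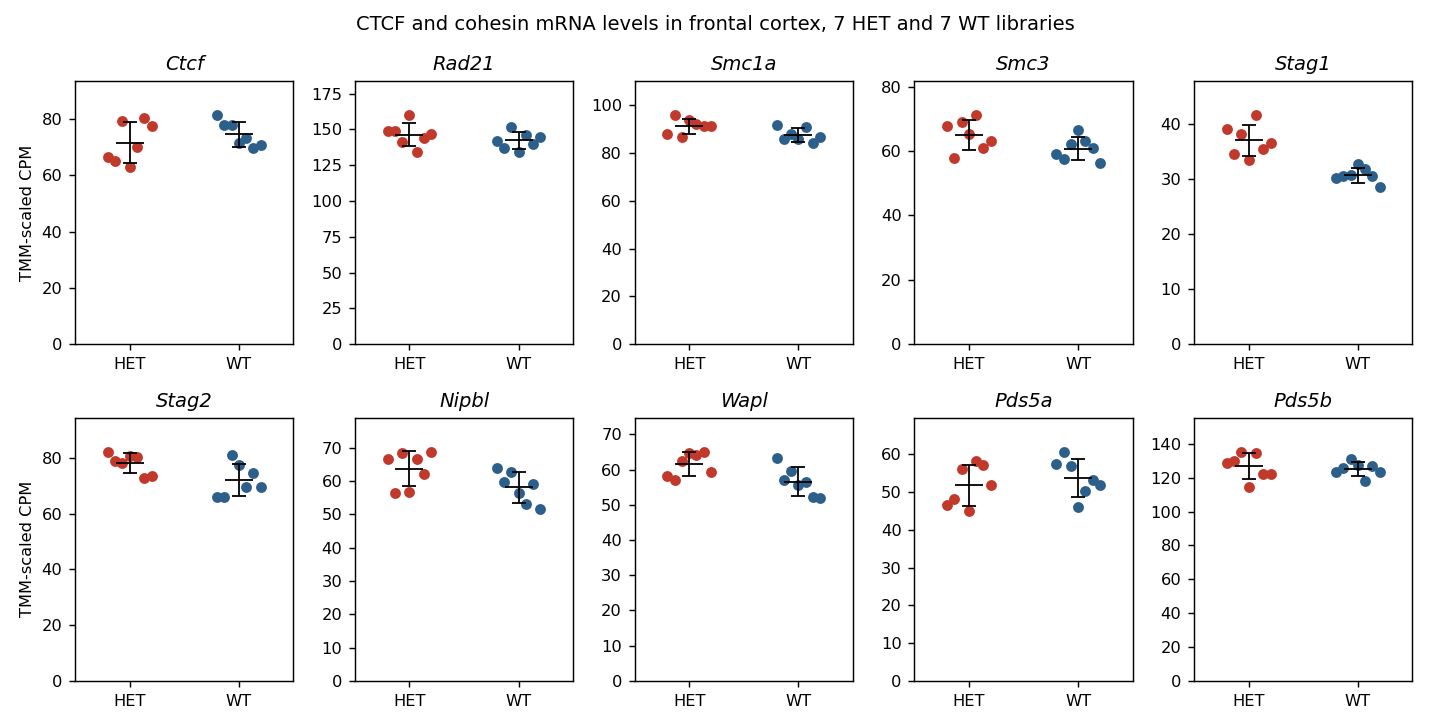
TMM-scaled CPM of each of the 10 genes in the 7 HET libraries (red, left) and the 7 WT libraries (blue, right); the black bars are mean and SD, and each vertical axis starts at 0. The HET and WT points of Stag1 do not overlap, and those of the other 9 genes do.

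**Figure D2:**
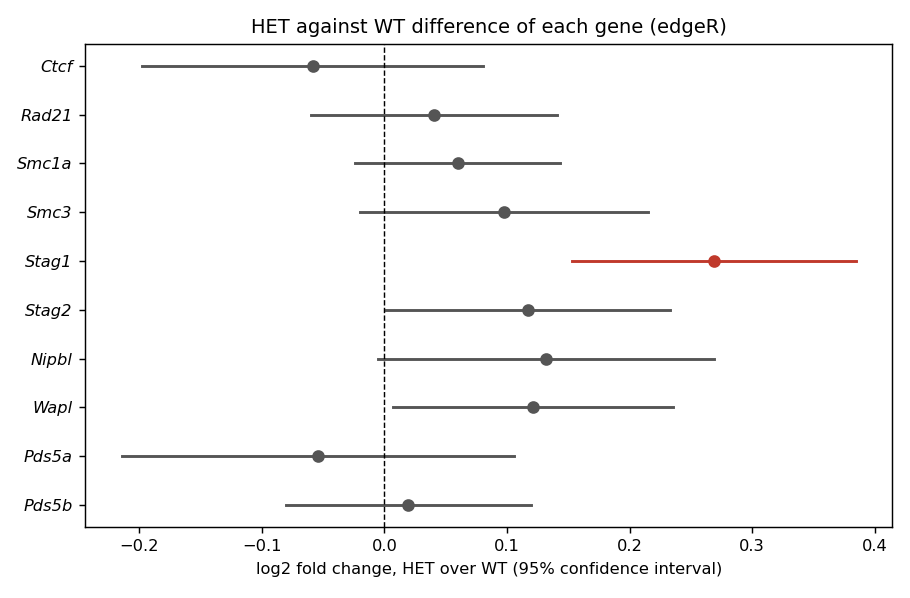
The log2 fold change of HET over WT for each gene (points) with its 95% confidence interval (lines) from edgeR. Stag1, in red, is the single gene with an adjusted p under 0.05.

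Ctcf (ENSMUSG00000005698, GRCm38 chromosome 8, 105636568 to 105682922, plus strand) encodes the zinc-finger protein at which loops end. Its level ran from 62.9 over a median of 70.1 to 80.4 CPM in HET and from 69.7 over 73.3 to 81.4 CPM in WT. The groups overlapped: 3 HET libraries lay above the WT median and 4 below it, and HET 4, HET 2 and HET 1 were the lowest of the 14. Mean levels (± SD, n = 7 each) were 71.7 ± 7.30 CPM for HET and 74.7 ± 4.47 CPM for WT, which gave a log2 fold change of -0.06 (95% confidence interval -0.20 to 0.08; adjusted p 0.638, edgeR). The interval allows a fall of up to 12.8% or a rise of up to 5.75%. Of the exon bases of Ctcf, 7.61% are shared with Gm5914 and 2.35% with Agrp, both on the opposite strand, and strand was ignored in counting, so reads there cannot be told apart.

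The 3 genes of the ring had overlapping groups. Smc1a (ENSMUSG00000041133, chromosome X, 152016428 to 152062694, plus strand) encodes the SMC subunit that carries one of the ring's paired ATPase heads. It ran from 86.7 over 91.3 to 95.7 CPM in HET and from 83.9 over 86.5 to 91.7 CPM in WT. All 7 HET libraries lay above the WT median, but only 3 above the highest WT library. In edgeR Smc1a had a log2 fold change of 0.06 (-0.02 to 0.14). The edgeR p was 0.149 unadjusted and 0.387 adjusted. A two-sided exact permutation test, run on each of the 10 genes by itself without adjustment, gave a p of 0.0385 for Smc1a. Smc3 (ENSMUSG00000024974, chromosome 19, 53600398 to 53645833, plus strand), its partner SMC subunit, whose acetylation locks cohesin on DNA, ran from 57.8 over 65.4 to 71.1 CPM in HET and from 56.3 over 60.8 to 66.6 CPM in WT. Here 3 HET libraries exceeded the highest WT library, and HET 2 lay among the lowest of all. The log2 fold change was 0.10 (-0.02 to 0.21), with an adjusted p of 0.309 in edgeR. Rad21 (ENSMUSG00000022314, chromosome 15, 51962240 to 51991747, minus strand), the kleisin that closes the ring, ran from 134 over 147 to 160 CPM in HET and from 134 over 142 to 152.0 CPM in WT. Both groups covered nearly the same range, and the log2 fold change was 0.04 (-0.06 to 0.14; adjusted p 0.651 in edgeR).

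The STAG subunits, which help cohesin bind CTCF and DNA, are a pair of paralogs. Stag1 (ENSMUSG00000037286, chromosome 9, 100597798 to 100959375, plus strand) had 39.1, 34.6, 38.1, 33.5, 41.5, 35.5 and 36.6 CPM in HET 1 to 7. In WT 1 to 7 it had 30.2, 30.5, 30.6, 32.8, 31.9, 30.5 and 28.5 CPM. Every HET library was above every WT library, with HET 4 at 33.5 CPM nearest to WT 4 at 32.8 CPM, and such separation upward was found in 0.432% of all genes tested. Mean levels (± SD, n = 7 each) were 37.0 ± 2.79 CPM for HET and 30.7 ± 1.36 CPM for WT. In edgeR this was a log2 fold change of 0.27 (SE 0.05, 95% confidence interval 0.15 to 0.38; a rise of 11.2% to 30.5%), with an adjusted p of 0.0408. By itself the gene gave a two-sided exact permutation p of 0.000583, the smallest that all splits of 14 libraries into 7 and 7 allow. By p, Stag1 ranked 74 among all genes tested, and 12 of the 106 genes called higher had a smaller log2 fold change. No other annotated gene shares exon bases with Stag1.

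The Stag1 call lay close to the threshold. DESeq2 gave an adjusted p of 0.00132 and limma-voom 0.00959. In edgeR the call ended without HET 1, 2, 3, 4 or 7 and without WT 1, 2, 3, 5, 6 or 7 (adjusted p from 0.0534 to 0.094), and it held without HET 5, HET 6 or WT 4 (0.0453, 0.0249 and 0.0123). The log2 fold change stayed between 0.24 and 0.29 in these 14 fits. The unadjusted edgeR p of Stag1 ran from 8.75e-05 (without HET 4) to 0.000511 (without HET 1), against 0.000169 with all libraries. The adjusted p also depends on the other genes, and between 11 and 1672 genes of the whole table were called in these fits.

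Stag2 (ENSMUSG00000025862, chromosome X, 42149317 to 42277185, plus strand), the alternative subunit, ran from 72.8 over 79.0 to 82.1 CPM in HET and from 65.9 over 69.7 to 80.9 CPM in WT. All 7 HET libraries were above the WT median, while WT 3, WT 4 and WT 6 reached into the HET range. In edgeR Stag2 had a log2 fold change of 0.12 (0.0009 to 0.23), with an unadjusted p of 0.0485 and an adjusted p of 0.222. By itself Stag2 gave a two-sided exact permutation p of 0.0373. Per kilobase of exon, the ratio of Stag1 to Stag2 ran from 0.292 over 0.342 to 0.363 in HET and from 0.266 over 0.298 to 0.324 in WT. These ratios overlapped between the groups and were below 1 in all 14 libraries, with less Stag1 than Stag2 per kilobase.

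Nipbl (ENSMUSG00000022141, chromosome 15, 8290617 to 8444463, minus strand), the loader, ran from 56.4 over 66.5 to 68.7 CPM in HET and from 51.7 over 59.2 to 63.9 CPM in WT. HET 2 and HET 4 lay below the WT median, and 4 HET libraries lay above the highest WT library. The log2 fold change was 0.13 (-0.0049 to 0.27; adjusted p 0.241 in edgeR), the second highest of the 10. The releasing factor Wapl (ENSMUSG00000041408, chromosome 14, 34673928 to 34747983, plus strand) ran from 57.0 over 62.3 to 64.9 CPM in HET and from 51.9 over 56.4 to 63.3 CPM in WT. All 7 HET libraries exceeded the WT median and 3 the highest WT library, and the log2 fold change was 0.12 (0.0073 to 0.24) with an adjusted p of 0.199 in edgeR. By itself Wapl gave a two-sided exact permutation p of 0.02855. The ratio of loader to releaser, Nipbl to Wapl per kilobase, had a median of 0.731 in HET and 0.713 in WT and overlapped between groups.

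The PDS5 paralogs, which bind the ring together with WAPL, had the largest p-values of the 10 genes. Pds5b (ENSMUSG00000034021, chromosome 5, 150673739 to 150810690, plus strand) ran from 114 over 129 to 135 CPM in HET and from 118 over 126 to 131 CPM in WT. Most libraries of both groups lay in the same range, and edgeR gave a log2 fold change of 0.02 (-0.08 to 0.12; adjusted p 0.844). Pds5a (ENSMUSG00000029202, chromosome 5, 65605721 to 65698273, minus strand) ran from 44.9 over 51.8 to 58.1 CPM in HET and from 45.9 over 53.3 to 60.6 CPM in WT. Its log2 fold change was -0.05 (-0.21 to 0.11; adjusted p 0.714 in edgeR). For Ctcf and Pds5a, 4 of 7 HET libraries lay below the WT median. The two-sided exact permutation p, not adjusted, was 0.346 for Ctcf, 0.307 for Rad21 and 0.0845 for Smc3. For Nipbl, Pds5a and Pds5b the same test gave 0.0635, 0.474 and 0.639.

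Excitatory marker levels went along in part with the levels of Ctcf and Pds5a, as shown in the plot of the 3 genes against these markers. No correlation was tested. HET 4 and HET 1, lowest in these markers, had 62.9 and 66.5 CPM of Ctcf and 44.9 and 46.5 CPM of Pds5a. WT 1, highest in these markers, had 81.4 CPM of Ctcf and 57.4 CPM of Pds5a. Some libraries departed from this order. HET 3 (excitatory mean 6.992) had 79.4 CPM of Ctcf, above WT 6 (7.594) at 69.7 CPM. HET 5 (7.018) had 58.1 CPM of Pds5a, above WT 1. With the excitatory marker mean as a covariate in edgeR, the log2 fold changes of Ctcf and Pds5a turned to 0.05 and 0.10, with adjusted p of 0.772 and 0.547. Stag1 had 33.5 CPM in HET 4 and 39.1 CPM in HET 1, which spans much of the HET range. Among HET libraries, HET 5 was highest in striatal marker mean (7.487 log2 CPM) and Stag1 (41.5 CPM). HET 4 was lowest in both (3.187 log2 CPM and 33.5 CPM). Among WT libraries, WT 4 was highest in both (6.982 log2 CPM and 32.8 CPM). WT 3, lowest in striatal markers (3.024), had 30.6 CPM of Stag1, and WT 7 (5.415) had 28.5 CPM. This relation was not tested. The log2 fold change of Stag1 was 0.28 with the excitatory mean and 0.28 with excitatory, striatal and thalamic means. It was 0.28 without HET 4 and HET 1, and 0.30 without these 2 and WT 4. The adjusted p in edgeR was 0.156, 0.0669, 0.109 and 0.0246 in the same order, so the log2 fold change stayed near its value of 0.27 while the call ended in the first 3 of these fits. Microglial markers summed to 185 to 267 CPM in HET and 243 to 280 CPM in WT (0 of 5 called, 3 at an unadjusted p under 0.05), and red blood cell markers to 103 to 197 CPM in HET and 133 to 428 CPM in WT (0 of 4 called, 4 at an unadjusted p under 0.05), with no marker of these 2 lists at 0 in any library. The part of these 2 cell types in the Stag1 value was not tested.

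**Figure D3:**
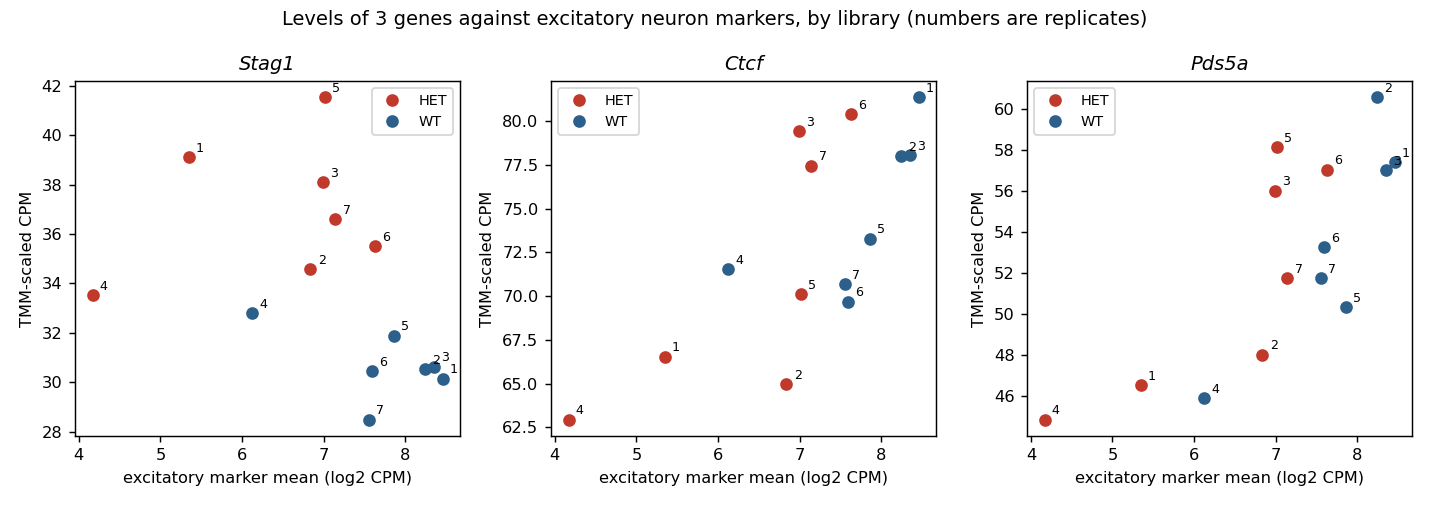
TMM-scaled CPM of Stag1, Ctcf and Pds5a (vertical axes, not starting at 0) against the mean log2 CPM of 8 excitatory neuron markers in the same library, with HET in red and WT in blue and the replicate number beside each point. The HET points of Stag1 lie above all WT points, while for Ctcf HET 1, 2 and 4 and for Pds5a HET 4 lie below all WT points and the other HET points within the WT range.

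Levels can be compared between genes only per length of exon, and here CPM was divided by kilobases of all annotated exons. These lengths run from 4.23 kb for Rad21 to 19.3 kb for Pds5a and count every annotated exon, used or not, so the order rests on the annotation. Rad21 was highest at 34.1 ± 1.67 CPM per kb (mean ± SD over the 14 libraries of both genotypes, as for the next values), and it exceeded the next gene in each of them. Smc1a (15.5 ± 0.600) and Ctcf (15.1 ± 1.24) did not differ beyond their spread, with Smc1a higher in 4 of 7 HET and 4 of 7 WT libraries. Their means were 15.8 for Smc1a and 14.7 for Ctcf in HET, and 15.2 for Smc1a and 15.4 for Ctcf in WT. Pds5b (12.8 ± 0.600) and Smc3 (11.3 ± 0.823) followed, with Pds5b higher in 13 of 14. Stag2 (9.07 ± 0.675) and Wapl (8.92 ± 0.662) again lay within their spread, with Stag2 higher in 8 of 14. Nipbl stood at 6.46 ± 0.588 CPM per kb and was above Stag1 in all 14 libraries. Stag1 (2.87 ± 0.330) and Pds5a (2.73 ± 0.263) were lowest, and their order turned with genotype: Stag1 was the higher in 7 of 7 HET libraries (3.14 ± 0.236 for Stag1, 2.68 ± 0.279 for Pds5a) and in 2 of 7 WT libraries (2.61 ± 0.115 for Stag1, 2.78 ± 0.257 for Pds5a). Among the paralogs, Stag2 and Pds5b were thus the more abundant by this measure, and the ratio of Pds5a to Pds5b had a median of 0.211 in HET and 0.217 in WT. Smc1a and Smc3, which meet in the ring as a pair, had a ratio with a median of 1.38 in HET and 1.38 in WT.

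**Figure D4:**
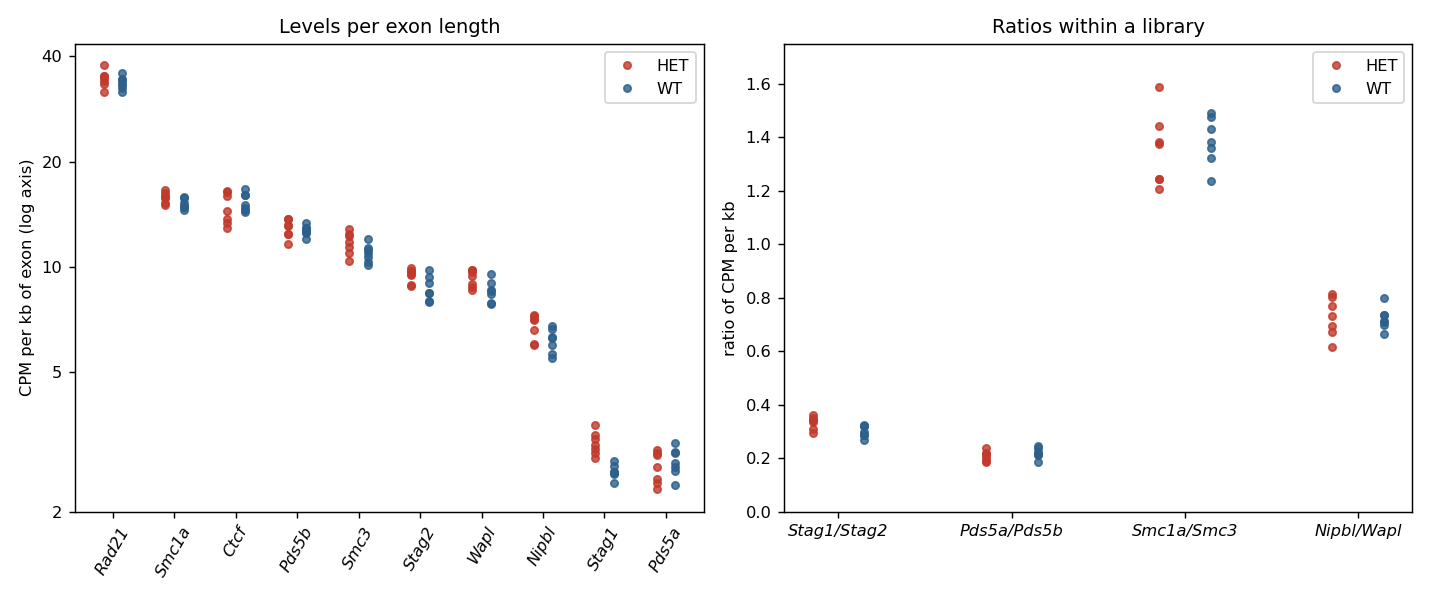
Left, CPM per kb of exon for each gene in each library on a log axis, in order of the mean over all libraries; right, the ratio of CPM per kb for 4 gene pairs in each library. HET is red and left of WT in blue, and the HET and WT points overlap in all 4 ratios.

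Open chromatin at the gene starts was examined next in the 2 peak lists, which hold 30862 peaks for HET and 19272 for WT on mm10 (GRCm38). Each list has no replicates and no height, so presence and width are described and not tested. A peak lay within 1 kb of the gene start (the outermost exon base in the count tables) for 9 of 10 genes in the HET list and 9 of 10 in the WT list. Among all tested genes the share was 63.6% in the HET list, 57.2% in the WT list and 57.7% with the 19272 widest HET peaks. Each of the 9 genes had in that window a HET peak that overlapped a WT peak. The widest were those of Nipbl, 1315 bases in HET and 1483 bases in WT, and of Ctcf, 1210 bases in HET and 1150 bases in WT. At Pds5b the HET peak was 876 bases wide and the WT peak 531, and at Wapl the HET peak was 589 and the WT peak 762, and over the shared peaks of the 10 genes the HET peak was the wider at 7 and the WT peak at 3. In the whole lists the HET peak was the wider in 62.2% of the 16913 pairs of a HET and a WT peak that overlapped each other and no other peak, so the 10 genes lay near the background. The depth behind each list is unknown, so a peak present in 1 list alone is not shown to differ between genotypes.

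Stag1 was the gene without a peak at its outermost start. Its single peak in each list lay inside the gene over an annotated exon, at chr9:100642900-100643789 in HET (890 bases) and chr9:100642897-100643875 in WT (979 bases), beginning 45102 bases (HET) and 45099 bases (WT) downstream of that start. The start that the RefSeq promoter table gives for Stag1, base 100643448, lies inside both peaks. With RefSeq starts added, all 10 genes had a promoter peak in each list, and Stag1 alone made this change. The share of all tested genes with RefSeq starts added was not computed, so this count has no background. Stag2 carried a peak upstream of its start in the HET list alone (chrX:42148866-42149173, 308 bases), besides one shared by both lists at 831 to 1440 bases downstream in HET and 866 to 1274 in WT. The 308-base peak was not among the 19272 widest HET peaks. Pds5a had a second peak in the HET list alone (chr5:65696925-65697356, 432 bases), over an exon 917 to 1348 bases downstream of its start, and that peak was among the widest 19272. Away from the promoters, the HET list also held a peak of 153 bases within Nipbl, one 3547 bases beyond the end of Rad21 and one 2852 bases beyond the end of Smc3, where the WT list had none.

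**Figure D5:**
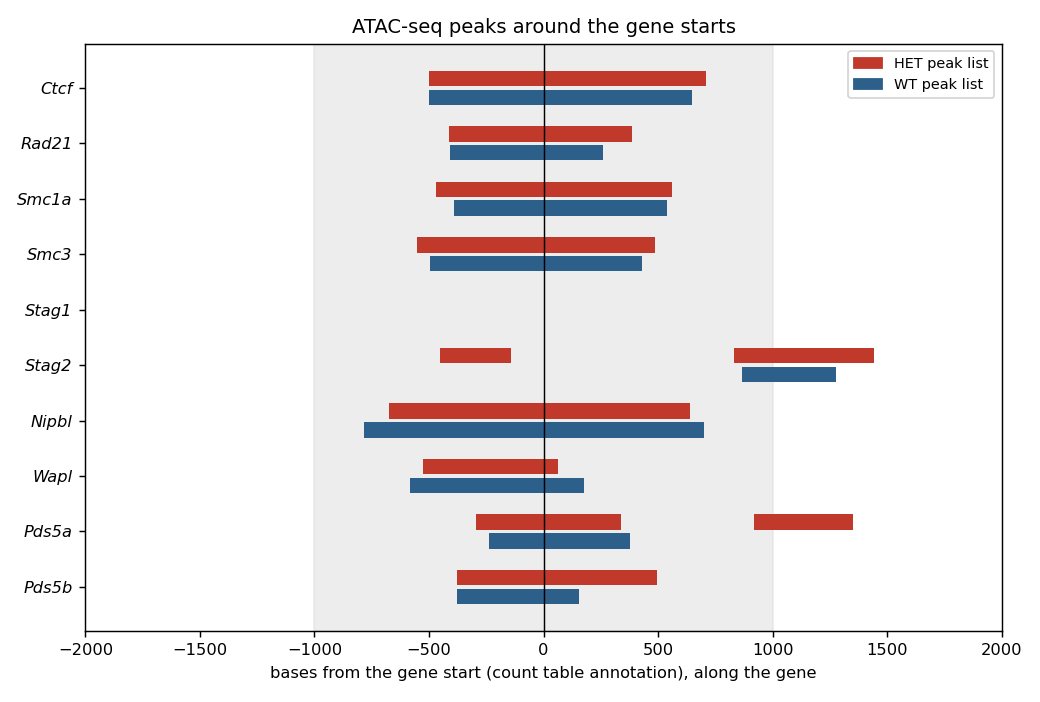
Peaks of the HET list (red, upper bar) and the WT list (blue, lower bar) within 2000 bases of each gene start, with distance along the gene on the horizontal axis and the window of 1 kb in grey. Stag1 has none in view because its peaks begin at 45102 bases in HET and 45099 bases in WT downstream of the start.

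Promoter sequences, from 250 bases before to 50 bases after the RefSeq start on GRCm38.p6, were on hand for 7 of the 10 genes (Ctcf, Smc1a, Smc3, Stag1, Wapl, Pds5a and Pds5b). The start base of each of the 7 lay in a peak of both lists, and the share over all RefSeq promoters was not computed. The 7 sequences held 58.3% (Smc1a) to 80.3% (Pds5a) G and C and 23 to 55 CpG pairs, against medians of 52.7% and 7 over all 32851 promoters of the table. A motif of the kind bound by YY1 (CGCCATNTT, either strand, a search chosen after the sequences were seen) was in 4 of the 7 and in 2.38% of all promoters. Since the motif was picked from these same letters, the 2 shares do not test enrichment. The motif also holds a CpG, and no promoters matched for GC or CpG were searched. The core of the CTCF motif (CCA, AG and GGC with 2 free bases between them, either strand) was in 0 of the 7 and in 2.43% of all. The 4 with the first motif are shown because they share it, Stag1 among them, with the match in capitals. On the strand of the gene Smc3 had it 1 base before the start base, Ctcf 9 bases after it and Pds5b 38 bases before it, and Stag1 had it on the other strand 202 bases before. The genome positions are chr9:100643198-100643497 (plus strand) for Stag1, chr8:105636288-105636587 (plus) for Ctcf, chr19:53600146-53600445 (plus) for Smc3 and chr5:150673577-150673876 (plus) for Pds5b. The letters are those of RefSeq, printed 5′ to 3′.
Stag1: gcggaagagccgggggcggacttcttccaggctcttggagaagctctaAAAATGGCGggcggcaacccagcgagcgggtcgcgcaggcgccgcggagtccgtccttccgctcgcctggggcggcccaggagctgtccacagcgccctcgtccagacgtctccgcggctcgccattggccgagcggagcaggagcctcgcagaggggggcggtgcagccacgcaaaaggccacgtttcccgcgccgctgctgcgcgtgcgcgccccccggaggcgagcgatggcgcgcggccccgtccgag
Ctcf: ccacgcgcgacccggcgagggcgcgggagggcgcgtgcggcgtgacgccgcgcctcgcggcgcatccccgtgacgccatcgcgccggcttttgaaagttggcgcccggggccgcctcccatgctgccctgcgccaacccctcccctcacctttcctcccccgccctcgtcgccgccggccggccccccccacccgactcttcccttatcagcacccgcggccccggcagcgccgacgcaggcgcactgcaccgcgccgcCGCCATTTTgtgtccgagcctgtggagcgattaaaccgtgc
Smc3: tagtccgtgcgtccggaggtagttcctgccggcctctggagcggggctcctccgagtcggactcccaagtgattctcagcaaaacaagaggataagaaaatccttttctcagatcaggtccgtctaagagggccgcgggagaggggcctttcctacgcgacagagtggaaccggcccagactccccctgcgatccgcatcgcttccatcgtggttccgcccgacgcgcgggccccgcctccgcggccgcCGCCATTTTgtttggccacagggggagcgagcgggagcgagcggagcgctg
Pds5b: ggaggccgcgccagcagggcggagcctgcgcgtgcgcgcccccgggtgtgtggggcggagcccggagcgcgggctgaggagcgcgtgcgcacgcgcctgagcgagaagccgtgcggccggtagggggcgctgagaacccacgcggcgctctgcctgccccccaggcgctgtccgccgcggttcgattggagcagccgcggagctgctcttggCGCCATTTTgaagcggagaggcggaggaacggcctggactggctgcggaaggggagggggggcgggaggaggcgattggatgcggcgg
A match describes these letters and does not show binding, and the lack of one says only that these letters are not in this window. CCAAT, the NF-Y box, searched on both strands, was in 4 of the 7 (Pds5b, Smc1a, Stag1 and Wapl) and in 37.4% of all promoters.

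Other genes of the pathway were taken from 4 lists, with the whole-table rates given above as their background. Of 12 regulators of loading, acetylation and release, 9 were tested and 0 changed in edgeR, 0 had an unadjusted p under 0.05, and DESeq2 and limma-voom called 0. Among those with the smallest p were Plk1, a mitotic kinase that acts on cohesin (1.17 ± 0.594 CPM in HET, 0.846 ± 0.181 CPM in WT; adjusted p 0.359), and the helicase gene Ddx11 (2.02 ± 0.766 CPM in HET, 1.49 ± 0.647 CPM in WT; adjusted p 0.382). Mau2, the partner of NIPBL, had 88.2 ± 7.00 CPM in HET and 88.0 ± 6.11 CPM in WT. Esco2, Cdca5 and Sgo1, genes of dividing cells, had 116, 68 and 116 counts over all 14 libraries and were too low to test. The median log2 fold change of the 9 was 0.06.

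Of the 5 meiotic and germline counterparts, 3 were tested and 1 rose. Rec8, the kleisin that takes the place of RAD21 in meiosis, had 19.0 ± 3.71 CPM in HET and 5.58 ± 3.47 CPM in WT, and every HET library exceeded every WT library (log2 fold change 1.76, adjusted p 0.0332 in edgeR). When single libraries were dropped, Rec8 stayed called without HET 3, 5 or 6 or WT 4. It lost the call in the other 10 fits, where the adjusted p reached 0.0818 (without WT 1). Over these fits the unadjusted edgeR p of Rec8 ran from 2.6e-07 (without WT 4) to 0.000174 (without WT 2), against 5.03e-05 with all libraries. Rad21l, another meiotic kleisin, had 1.198 ± 0.509 CPM in HET and 0.612 ± 0.176 CPM in WT (log2 fold change 0.96, adjusted p 0.0924), and Stag3, the meiotic STAG subunit, had 1.09 ± 0.318 CPM in HET and 1.04 ± 0.202 CPM in WT (adjusted p 0.868). Smc1b and Ctcfl were too low to test. DESeq2 called Rad21l as well as Rec8 (adjusted p 0.0312 for Rad21l), and limma-voom did not (0.128 for Rad21l).

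Of 15 condensin and SMC5/6 genes 0 changed in edgeR, 1 had an unadjusted p under 0.05, and DESeq2 and limma-voom called 0. That was Ncaph2, the kleisin of condensin II, which averaged 80.1 ± 2.33 CPM in HET and 86.3 ± 4.05 CPM in WT (log2 fold change -0.11, adjusted p 0.152). Smc6 and Nsmce4a of the SMC5/6 complex had log2 fold changes of 0.10 and 0.12 with adjusted p of 0.262 and 0.319, and the median of the list was -0.0002. Of 16 other architectural and CTCF-partner genes 0 changed in edgeR, with 3 higher and 4 lower at an unadjusted p under 0.05. DESeq2 called 2 of the 16 lower, and limma-voom 2 lower and 1 higher. In the whole table DESeq2 called 1503 and limma-voom 1886 of 18050 genes, both directions together. The smallest edgeR p of the 16 belonged to Top2a, a topoisomerase of dividing cells, with 1.21 ± 0.455 CPM in HET and 2.35 ± 0.857 CPM in WT (log2 fold change -0.96, adjusted p 0.107). Satb1, a chromatin organiser of cortical neurons and lymphocytes, followed with 63.7 ± 18.0 CPM in HET and 112 ± 43.3 CPM in WT (-0.82, adjusted p 0.110). Chd8, a remodeller that binds CTCF, had 98.8 ± 6.02 CPM in HET and 90.0 ± 5.31 CPM in WT (0.13, adjusted p 0.152). Top2a is itself one of the 5 dividing-cell markers. These markers summed to 2.62 to 5.66 CPM in HET and 4.38 to 9.56 CPM in WT (0 of 5 called, 3 at an unadjusted p under 0.05, 1 at 0 counts in some library), and their part in the Top2a value was not tested.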

How the data were processed

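RNA was measured in 7 HET and 7 WT frontal cortex libraries. The authors' deposited values are raw read counts per gene; per the file headers, featureCounts 2.0.1 summed exons by gene ID of Ensembl GRCm38 release 102 with strand ignored and no option to count pairs. STAR and Trimmomatic were named without versions, and for the ATAC-seq Bowtie2 2.4.4, SAMtools 1.9 and MACS3, per the submitters' processing notes. The 2 peak lists deposited by the authors (mm10) hold positions alone; their names mark them as merged, and which libraries went in, and with what settings, no label says. Of the 26 samples, those of Hi-C (4), PAT and Control were not used here.

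Of 55487 gene IDs, 55141 matched a symbol. No library looked like a copy of another (chi-square per degree of freedom at least 9.38 in all 91 pairs). Genes passing filterByExpr (18050) went through TMM scaling and the test of edgeR 4.0.16 (robust quasi-likelihood, genotype as the single term, two-sided, adjusted p under 0.05). Log2 CPM used a prior count of 2. Errors are SD over the 7 libraries of a genotype, or over all 14 where said, each library from 1 mouse by the design text. Alternatives were DESeq2 1.42.0, limma 3.58.1 (voom), other scaling and filters, a replicate block, marker covariates and libraries left out. The edgeR steps were tested on simulated counts. The genes, lists and tests were chosen with earlier results of these data known. All 10 genes were named whatever their values; from each list came the called genes and the 3 with the smallest p, of which 1 gene is not reported here. Mau2 and the untested genes fell outside this rule and were chosen after their values were seen.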

Additional observations from a re-analysis of the deposited data

How the results depend on the processing

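The number of genes called in the whole table was 175 in edgeR and moved most with the setting. It was 1503 in DESeq2, 1886 in limma-voom, 1195 at an adjusted p under 0.1, 692 without the 3 libraries lowest in excitatory markers (HET 4, HET 1 and WT 4), 106 without a filter on low counts, 29 with 3 marker means as covariates, 13 with the excitatory mean as covariate, 13 without HET 4 and HET 1, and 11 to 1672 with 1 library left out. The count of the 10 genes called higher was 1 in edgeR and 0 without the filter, with the excitatory covariate, without HET 4 and HET 1, with the 3 marker means, and 0 to 1 with 1 library left out; none of these alternatives called 1 of the 10 lower. Stag1 kept its direction in all 24 alternatives (log2 fold change 0.24 to 0.30, adjusted p 0.00132 to 0.156) and was called in 8. The meiotic counterparts called higher numbered 1 in edgeR, 2 in DESeq2, 0 without the filter, with the excitatory covariate and without HET 4 and HET 1, and 0 to 2 with 1 library left out. For the architectural genes, 0 were called in edgeR, while 2 were lower in DESeq2, in limma-voom (which also had 1 higher) and without the 3 libraries, and 0 to 1 in each direction with 1 library left out. Of 250 values over the 10 genes, 6 changed sign, all of them log2 fold changes that did not pass the test: Ctcf 0.051 with the excitatory covariate and 0.059 with the 3 marker means, Pds5a 0.10 and 0.10 in the same fits and 0.013 without HET 4 and HET 1, and Rad21 -0.0042 without the 3 libraries. The fits with 3 marker means and those without 2 or 3 libraries were chosen after seeing the data, and the causes of these shifts were not tested. Replicate numbers are shared by HET and WT libraries, and no pairing by number was visible in the counts. Correlations of same-numbered deviations ran from -0.284 to 0.334 over the 7 numbers, and only number 4 matched its own number best. Tissue makeup also enters these correlations, so they cannot exclude that the libraries were paired. With the replicate number as a block, 10 genes were called in the whole table, 0 of the 10 genes and 0 meiotic counterparts were higher, and the log2 fold change of Stag1 was 0.27 (adjusted p 0.0855). The promoter peak counts were 9 in HET and 9 in WT within 1 kb, 9 and 8 within 500 bases, and 9 and 9 within 2 kb. With RefSeq starts added they were 10 and 10, with no share over all genes computed. Each of the 10 genes had 1041 to 6832 counts in every library, and for the 9 genes not called the confidence intervals give the range of differences that these libraries leave possible.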

Other observations

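How far the 10 genes moved together from mouse to mouse was a separate question from their mean levels. After each genotype's mean was taken out, log2 CPM was correlated over the 14 libraries for 6 pairs of paralogs, partners or opposed factors, with permutation p from 100000 resamples within genotype. None passed after Benjamini-Hochberg adjustment over the 6 (Pearson 0.366 to 0.373, Spearman 0.4 to 0.509). Stag1 and Stag2, which take the same place in cohesin, gave r = 0.282 (p = 0.281) and rho = 0.402 (p = 0.141), with r = 0.396 once HET 5 and HET 4, farthest from the Stag1 median, were left out. Pds5a and Pds5b gave r = 0.407 (p = 0.184) and rho = 0.204 (p = 0.509), and r = 0.294 without WT 4 and HET 4. Nipbl and Wapl, the loader and the releaser, gave r = 0.381 (p = 0.192) and rho = 0.486 (p = 0.093). Without HET 2 and WT 7, farthest from the Nipbl median, r was 0.0523, and leaving out such libraries also narrows the range. Within the genotypes the r of Nipbl and Wapl was -0.0131 over the 7 HET libraries and 0.715 over the 7 WT libraries. In the same order, Ctcf with Rad21 gave -0.53 and 0.209, Smc1a with Smc3 -0.615 and 0.0417, and Rad21 with Smc3 -0.419 and -0.157. Stag1 with Stag2 gave 0.281 and 0.361, and Pds5a with Pds5b 0.527 and 0.192. These differences between genotypes were not tested. Over all 14 libraries Smc1a with Smc3 and Rad21 with Smc3 had negative values. Smc1a with Smc3 gave r = -0.336 (p = 0.264) and rho = -0.292 (p = 0.333), and -0.0151 without HET 3 and HET 2, and Rad21 with Smc3 gave r = -0.32 (p = 0.305) and rho = -0.314 (p = 0.293), and -0.216 without HET 5 and HET 4. The third pair within the ring, Rad21 with Smc1a, was not among the 6, and its r with genotype left in was 0.46. Ctcf with Rad21 gave r = -0.297 (p = 0.373) and rho = -0.327 (p = 0.281), and -0.221 without HET 6 and HET 3.

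As a description over the same 14 libraries, with genotype left in, depth and tissue makeup shared, and no test, the tested genes whose log2 CPM was most like that of Ctcf were Tmem120b (r 0.881, rho 0.864), Sphkap (r 0.88, rho 0.815) and 5530601H04Rik (r 0.878, rho 0.895). Among the 10 genes the one most like Ctcf was Pds5a (r 0.76, rho 0.657), and the highest of all 45 pairs was Smc3 with Stag1 (r 0.775, rho 0.754). Stag2 was nearest to Smc3 (r 0.662), Nipbl to Stag1 (r 0.668), Smc1a to Wapl (r 0.589), Pds5b to Nipbl (r 0.49) and Rad21 to Smc1a (r 0.46). Of the 45 pairs 29 were positive, with a median r of 0.23 and a range of -0.537 to 0.775.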
